A study of Mus musculus with 61 samples.

Results

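The genes described here are 39 genes of cholesterol and fatty acid synthesis, chosen by name: enzymes of the mevalonate pathway, of the squalene and sterol steps, of fatty acid synthesis and desaturation and of glycerolipid synthesis, and the regulators of these enzymes. Of the 39 genes, 36 had a probe with 1 gene in the annotation used, and 35 passed the filter (a detection p under 0.05 on at least 5 of 61 arrays), out of 12157 genes tested and 19057 with a probe. Each gene is given by its brightest probe. Acat2, Hmgcs1 and Fdft1 were not analysed here, and no Acaca probe passed the filter. Values are from Illumina MouseWG-6 v2 arrays, as background-corrected, quantile-normalized log2 signals, so that a difference of 0.58 is a fold of 1.5.

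The cells were hepatocytes isolated from C57BL/6 mice and cultured on collagen-coated dishes, first with serum, then starved overnight and stimulated without serum with 200 ng/mL IL-6. In gp130- mice an albumin promoter drives Cre recombinase, which deletes the floxed gp130 gene (Il6st) in hepatocytes. The gp130flox controls are littermates that carry the same floxed alleles. Arrays were hybridised at 0 h (unstimulated), 1, 3, 6 and 12 h, with 7, 6, 6, 7 and 7 arrays of gp130flox and 6, 6, 5, 5 and 6 of gp130- hepatocytes. Neither the age of the mice nor how many mice gave 1 preparation is stated in the sources used here, and no array after 0 h is from cells without IL-6, so that IL-6 and time in culture cannot be told apart.

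Cholesterol is built from acetyl-CoA through mevalonate, isoprenoids, squalene and lanosterol. SREBP-2 (Srebf2) turns on nearly all of these enzymes when sterols are scarce, while the sterol sensor Scap escorts it to the Golgi and the Insig proteins hold it back in the endoplasmic reticulum. SREBP-1 (Srebf1) and ChREBP (Mlxipl), the latter responsive to glucose, drive fatty acid synthesis from Acly through Acaca and Fasn to the elongases and desaturases, and the liver is a main site of both pathways. IL-6 acts on hepatocytes through gp130, best known there for STAT3 signaling and the acute phase response.

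The targeted gene was lower in the gp130- arrays: Il6st differed by -0.96 ± 0.24 (log2, SE) averaged over the 5 times (limma, adjusted p = 0.014), and the gp130-STAT3 target Socs3 by -3.57 ± 0.42 at 1 h (adjusted p = 4.02e-08). Arrays are known by genotype, time and a column number. All arrays that share a genotype and a number are taken as 1 preparation, which gave 7 of gp130flox (numbers 1, 2 and 7 to 11) and 6 of gp130- (numbers 2, 3, 4, 6, 7 and 9). The preparations numbered 1 to 4 (5 preparations, 25 arrays) stood apart from those numbered 6 to 11 (8 preparations, 36 arrays), a cut that came from the data. gp130flox had 2 of its 7 preparations in the lower set and gp130- had 3 of 6, so that fits are given with and without the set as a term. Xist was at 8.86 and 8.26 in the gp130- preparations 2 and 3 and between 4.17 and 4.25 in the other 11, and Xist is an RNA of female cells. Alb, albumin, which defines hepatocytes, was near the background on its probe (mean 4.28 in preparations 1 to 4, 5.85 in preparations 6 to 11, detected on 36 arrays), while transthyretin (Ttr) was at 12.85 and 14.08.

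The 5 members printed below are those called between genotypes over all preparations by the fits with the set term or with preparation as a block, without array weights, where a call needs both an adjusted p below 0.05 and a fold above 1.5. Their upstream bases, the 150 bases before an annotated start, are shown for the motifs that sterol and glucose regulators and their partners are known to use. In capitals are matches on either strand to TCACNCCAC (a sterol regulatory element core), CCAAT (NF-Y), CACGTG (E-box, its own reverse complement) and GGGCGG (Sp1), with overlapping matches all counted.
Lss, chr10:76531455-76531604, plus strand: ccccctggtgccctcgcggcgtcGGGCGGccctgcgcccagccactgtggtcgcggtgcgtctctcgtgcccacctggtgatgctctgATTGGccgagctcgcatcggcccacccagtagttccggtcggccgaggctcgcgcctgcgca
Srebf2, chr15:82147119-82147268, plus strand: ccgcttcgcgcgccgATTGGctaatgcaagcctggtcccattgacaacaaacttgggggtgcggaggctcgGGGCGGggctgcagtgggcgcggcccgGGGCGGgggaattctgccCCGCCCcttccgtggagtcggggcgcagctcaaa
Mlxipl, chr5:135089740-135089889, plus strand: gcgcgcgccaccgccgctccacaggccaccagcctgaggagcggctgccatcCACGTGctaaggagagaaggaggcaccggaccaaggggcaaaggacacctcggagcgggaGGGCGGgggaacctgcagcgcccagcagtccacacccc
Mlxipl, a second start, chr5:135106741-135106890, plus strand: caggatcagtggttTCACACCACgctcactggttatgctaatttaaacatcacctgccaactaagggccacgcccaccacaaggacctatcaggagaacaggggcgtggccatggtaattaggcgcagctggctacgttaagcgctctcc
Lpin1, chr12:16610967-16611116, minus strand: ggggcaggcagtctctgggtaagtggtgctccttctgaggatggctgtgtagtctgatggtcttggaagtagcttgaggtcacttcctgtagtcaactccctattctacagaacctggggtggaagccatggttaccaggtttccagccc
Thrsp, chr7:97417551-97417700, minus strand: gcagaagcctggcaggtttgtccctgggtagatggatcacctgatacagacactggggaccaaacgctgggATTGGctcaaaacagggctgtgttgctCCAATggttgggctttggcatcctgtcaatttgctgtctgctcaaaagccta

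The sequences are RefSeq promoters of build GRCm38.p6, and 30 of the 39 genes had 41 such windows (250 bases before to 50 after a start). CCAAT was in 58.5% of the 41 windows and in 37.4% of all 32851 windows in the table, GGGCGG in 63.4% and 35.7%, CACGTG in 19.5% and 7.15%, and TCACNCCAC in 4.88% and 1.24%. The 2 windows with TCACNCCAC were those of Hmgcs1 and of the second Mlxipl start. In the printed bases Lss, Srebf2 and Thrsp held CCAAT matches and Lpin1 none of the 4 motifs. These matches are a description of letters.

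At each single time, none of the 35 members was called between gp130- and gp130flox in the fit on group means (limma, Benjamini-Hochberg over 12157 genes). Over the 5 times 10 members had an unadjusted p under 0.05, beside 2484 of all 12157 genes. Of all genes 1.72% were called at 1 time or more. The median difference of the members lay between -0.20 and 0.03 across times, beside a median of 0.01 over all genes at each time. The spread of the sets enters this fit, and the 95% interval of a member's difference reached as far as 2.78 on the log2 scale (Scd1). Without the gp130flox preparation 1, and also without preparation 2, 2 members were called, and leaving out the gp130flox array 2 at 0 h or array 1 at 3 h gave 1 each. The share of all genes called in these refits is not given here, so these counts are not a result about the members in particular.

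Once the fit had a term for the set, 4 of 35 members were called at 1 time or more, beside 7.64% of all genes: Lss and Srebf2 were lower in gp130- hepatocytes and Lpin1 and Thrsp were higher. Leaving out each of the 13 preparations in turn gave 3 to 6 members, and Lpin1 was among them each time. How many of all genes were called in these refits was not counted. Lss lost its calls without gp130flox 9 or 11 or gp130- 6, 7 or 9, Srebf2 without gp130- 4 and Thrsp without gp130- 6. In fits averaged over the 5 times, where preparation entered as a random block, Mlxipl was called without the set term (1 member of 35, beside 1.62% of all genes), and Mlxipl and Thrsp were called with it (2 members, beside 4.4%). Thrsp was called in this fit without any 1 preparation, whereas Mlxipl was not called without gp130- 2, gp130- 3, gp130flox 1 or gp130flox 7. With the set term 8 members passed an adjusted p of 0.05 at any fold, beside 14% of all genes: Lss, Sqle, Srebf2 and Mlxipl were lower in gp130-, and Ebp, Insig2, Lpin1 and Thrsp were higher. For Insig2 this holds on its brightest probe only, and a second probe, given below, was lower in gp130- (-1.39 ± 0.13). The other 27 members missed the adjusted p, with differences from -0.30 (Elovl6, 95% interval -0.72 to 0.13) to 0.35 (Acacb, 0.07 to 0.63). The median over the 35 members was 0.03 and that over all genes 0.00.

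**Figure D1:**
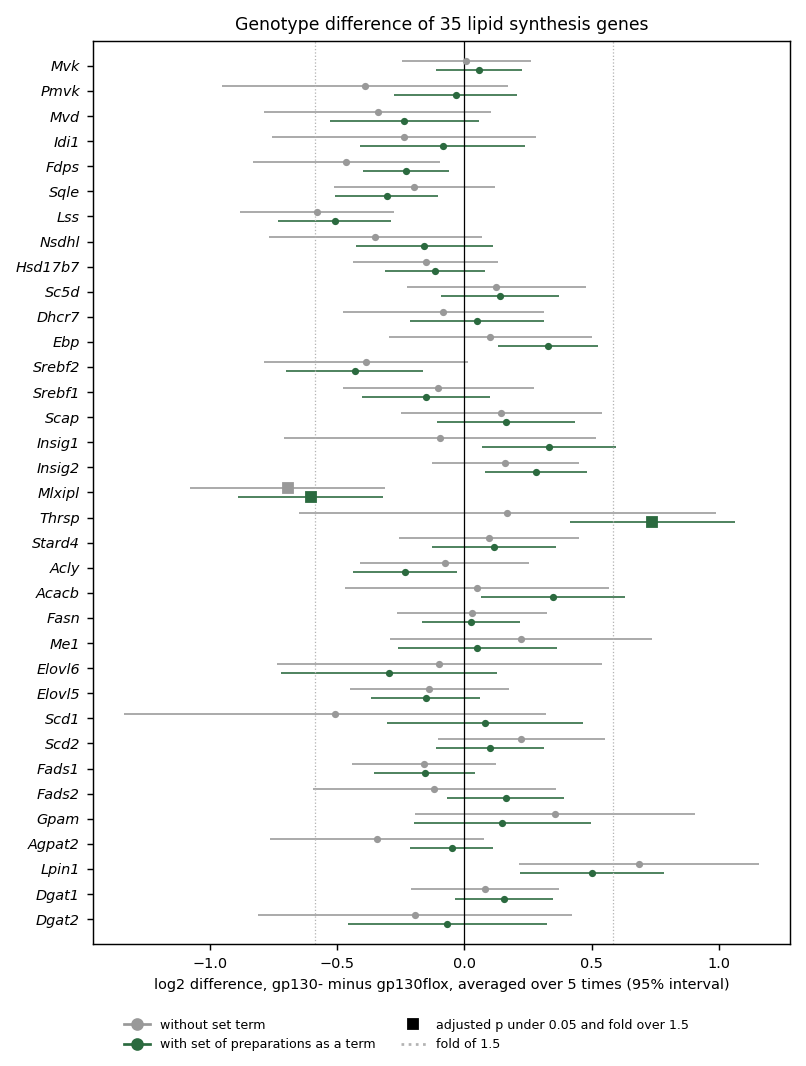
Difference in log2 signal between gp130- and gp130flox hepatocytes averaged over 5 times for 35 genes, from fits that block on preparation, without (grey) and with (green) a term for the set. Bars are 95% intervals and squares mark called genes: Mlxipl at -0.69 without and -0.60 with the term, and Thrsp at 0.74 with it.

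Lss, lanosterol synthase, closes the first sterol ring system from squalene epoxide. At 0 h the gp130flox arrays had a lowest, median and highest log2 signal of 8.15, 8.72 and 9.23, and the gp130- arrays of 7.33, 7.92 and 8.44. The ranges overlapped, with 4 of 6 gp130- arrays below every gp130flox array. The difference at 0 h was -0.80 ± 0.20 without the set term (adjusted p = 0.11, exact two-sided permutation p = 0.0035 over 1716 arrangements of the 6 and 7 arrays) and -0.73 ± 0.19 with it (adjusted p = 0.024). At 12 h the gp130flox arrays lay at 8.05, 8.50 and 8.75 and the gp130- arrays at 7.20, 7.93 and 8.25, a difference of -0.59 ± 0.19 with the set term (adjusted p = 0.046). By preparation, gp130flox had means of 8.33 and 7.98 in the set 1 to 4 and 8.21, 8.48, 8.87, 8.57 and 8.94 in the set 6 to 11. The gp130- preparations had 8.08, 8.03 and 7.29 and then 7.76, 8.11 and 8.11. In the set 6 to 11 every gp130- preparation was below every gp130flox preparation, which was not so in the set 1 to 4. Averaged over times the difference was -0.58 ± 0.15, a fold of 1.49 just under the threshold (adjusted p = 0.023), and -0.51 ± 0.11 with the set term (adjusted p = 0.00059). Within the sets it was -0.35 (adjusted p = 0.59) and -0.60 (adjusted p = 0.00016).

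Srebf2 encodes SREBP-2, the main transcription factor of sterol synthesis. Its preparation means in gp130flox were 7.497 and 7.18 and then 6.82, 7.17, 6.91, 7.07 and 7.12. In gp130- they were 6.99, 6.94 and 6.33 and then 6.63, 6.67 and 6.77. Within each set all gp130- preparations were below all gp130flox preparations. With the set term the averaged difference was -0.43 ± 0.13 (adjusted p = 0.022), under the fold of 1.5. At 12 h gp130flox arrays lay at 6.73, 7.19 and 7.56 and gp130- arrays at 6.15, 6.60 and 7.00, a difference of -0.62 ± 0.18 (adjusted p = 0.030). At 3 h the gp130flox arrays were 8.60, 7.21, 6.96, 6.99, 7.03 and 6.87 and the gp130- arrays 7.18, 6.82, 6.18, 6.17 and 6.97. The call at 3 h (-0.67 ± 0.20, adjusted p = 0.030) was lost without the array at 8.60 (-0.40, adjusted p = 0.18) or its whole preparation, gp130flox 1 (-0.39, adjusted p = 0.199). It was also lost without gp130- 4 (-0.54, adjusted p = 0.070) or gp130- 6 (-0.57, adjusted p = 0.103). A second Srebf2 probe differed by -0.14 ± 0.11 averaged over times with the set term (adjusted p = 0.53, over 19543 probes), so that the probes of this gene do not give the same size.

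Among the enzymes of the mevalonate pathway, Fdps, farnesyl diphosphate synthase, differed by -0.23 ± 0.08 between genotypes with the set term (adjusted p = 0.061). Mvk, Pmvk, Mvd and Idi1, which make and use mevalonate phosphates, had adjusted p-values above that. Of the squalene and sterol steps, Sqle (squalene epoxidase, the step before Lss) was lower in gp130- by -0.30 ± 0.10 (adjusted p = 0.033). A second Sqle probe, detected on all 61 arrays, differed by -0.12 with the set term, beside -0.29 on the brightest probe computed the same way. Ebp, the sterol isomerase, was higher by 0.33 ± 0.10 (adjusted p = 0.016). On their brightest probes Sqle and Lss were thus both lower in gp130-, and Ebp, further along the pathway, was higher. None of these 3 reached a fold of 1.5.

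Mlxipl encodes ChREBP, a glucose-responsive activator of lipogenic genes. Its preparation means in gp130flox were 8.43 and 7.61 and then 8.40, 8.28, 8.00, 7.94 and 8.27, and in gp130- 6.92, 6.51 and 7.89 and then 7.95, 7.67 and 7.73. The lowest values were those of the gp130- preparations 2 and 3, the 2 with Xist signal. The averaged difference was -0.69 ± 0.19 (adjusted p = 0.038), and -0.60 ± 0.14 with the set term (adjusted p = 0.0016). Without preparations 2 and 3 it was -0.32 (adjusted p = 0.39), and -0.32 with the set term (adjusted p = 0.050, just above the threshold), so that the call needs those preparations. No gp130flox preparation had Xist signal, so that sex and genotype cannot be told apart for them. Within the set 6 to 11, where no preparation had Xist signal, the difference was -0.40 ± 0.11 (adjusted p = 0.0050), under the fold of 1.5. A second Mlxipl probe differed by -0.38 ± 0.11 with the set term (adjusted p = 0.0100).

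Thrsp encodes Spot 14, a lipogenic protein that follows thyroid hormone and carbohydrate. Its preparation means were 4.75 and 4.53 and then 6.88, 6.93, 6.90, 6.82 and 6.85 in gp130flox, and 4.62, 4.46 and 5.62 and then 7.87, 7.79 and 8.10 in gp130-. In the set 6 to 11 the 3 gp130- preparations lay above all 5 gp130flox preparations. In the set 1 to 4 the genotypes overlapped, between 4.46 and 5.62, and Thrsp was detected on only 6 of 10 gp130flox and 11 of 15 gp130- arrays there, so that background limits any difference that involves this set. Averaged over times the difference was 0.17 ± 0.41 without the set term (adjusted p = 1.00) and 0.74 ± 0.16 with it (adjusted p = 0.00065). Within the set 6 to 11 it was 1.04 ± 0.14, a fold of 2.06 (adjusted p = 6.21e-07), and within the set 1 to 4 it was 0.26 (adjusted p = 0.87). At 12 h the gp130flox arrays lay at 4.38, 6.83 and 7.16 (lowest, median and highest) and the gp130- arrays at 4.41, 6.78 and 8.30, with a difference of 0.89 ± 0.25 with the set term (adjusted p = 0.019) and of 0.33 without it. With quality weights for the arrays, the averaged Thrsp difference without the set term turned to -1.31. The weights were highest on average for preparations 6 to 11 of gp130flox (1.75) and 1 to 4 of gp130- (1.74).

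Lpin1, lipin 1, is a phosphatidate phosphatase that makes diacylglycerol and also acts as a coactivator. At 3 h the gp130flox arrays were 6.14, 5.92, 4.58, 4.86, 4.85 and 4.84 and the gp130- arrays 7.06, 6.84, 6.00, 5.83 and 5.88. Within each set every gp130- array was above every gp130flox array except for 1 pair in the set 1 to 4, and the array at 4.58 was not detected. The difference at 3 h was 0.90 ± 0.21 with the set term (adjusted p = 0.0043) and 1.12 ± 0.34 without it (adjusted p = 0.10, exact permutation p = 0.030). Without the gp130- preparations 2 and 3, the averaged difference was 0.35 with the set term (adjusted p = 0.0547). Averaged over times with all preparations it was 0.50 ± 0.14 with the set term (adjusted p = 0.0096), under the fold of 1.5. The preparation means were 5.92 and 6.13 and then 5.33, 5.39, 5.12, 5.09 and 5.57 in gp130flox, and 7.01, 6.78 and 6.18 and then 5.67, 5.65 and 5.78 in gp130-. In both sets all gp130- means were above all gp130flox means. A second Lpin1 probe gave 0.48 ± 0.13 (adjusted p = 0.0071).

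**Figure D2:**
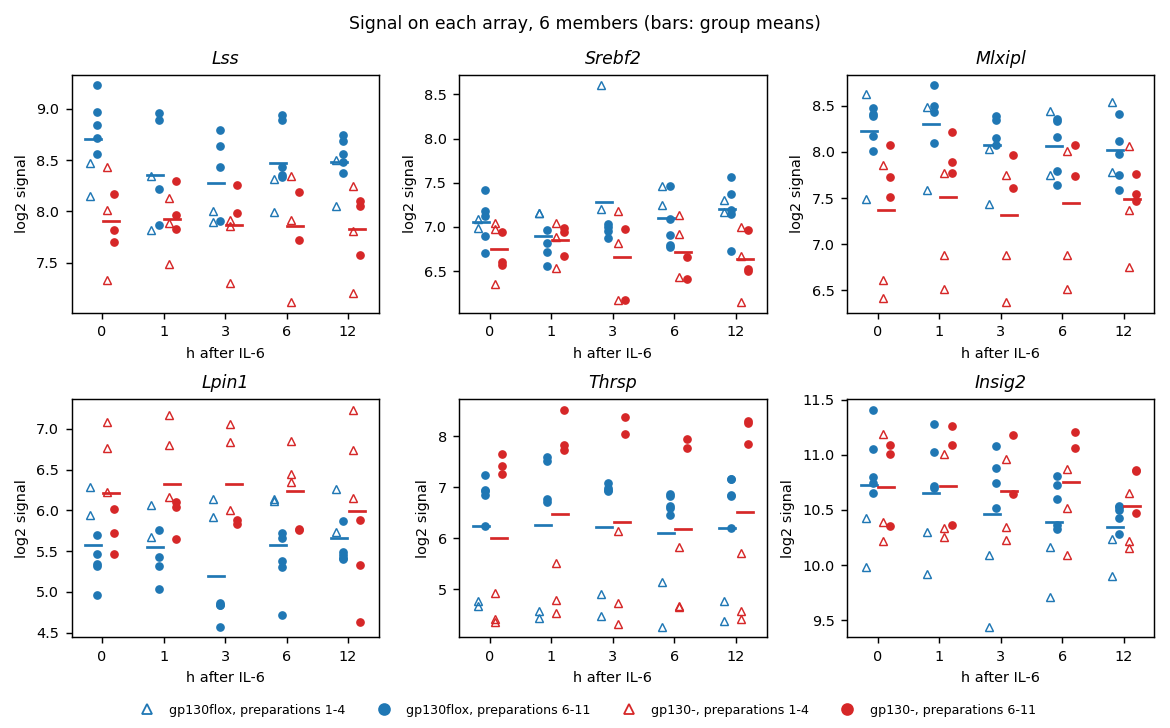
Log2 signal of 6 genes on each of 61 arrays by hours after IL-6, with gp130flox in blue, gp130- in red, preparations 1 to 4 as triangles and 6 to 11 as circles; bars are group means. Thrsp in the gp130- preparations 6 to 11 lies between 7.26 and 8.51, and the 1 high Srebf2 array of gp130flox at 3 h is at 8.60.

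Exact two-sided permutation tests that exchanged genotypes among the preparation means within each set (560 arrangements, run for all 35 members, p-values not adjusted) gave an unadjusted p under 0.05 for 8 members. They were run on the members only, so no share over all genes stands beside this count. In the averaged limma fit with the set term, 12 of 35 members and 3056 of 12157 genes had an unadjusted p under 0.05. The exact p was 0.0054 for Srebf2, 0.0071 for Ebp, 0.0089 for Thrsp, 0.0089 for Lpin1, 0.014 for Sqle, 0.016 for Lss, 0.021 for Fdps and 0.034 for Mlxipl. Exact tests over the arrays of 1 time, with no set term, were run for the 11 pairs of gene and time that a fit had called. Unadjusted, these exact permutation tests gave p = 0.0035 for Lss at 0 h and 0.0029 at 12 h, 0.0070 for Srebf2 at 12 h and 0.106 at 3 h. For Thrsp at 3, 6 and 12 h the exact permutation tests gave p = 0.88, 0.94 and 0.69. The genes were chosen by fits on the same arrays, so the permutation tests are not independent of them.

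Fitted within one set alone, none of the 35 members was called between genotypes at a single time in preparations 1 to 4, beside 2.46% of all genes. An unadjusted p under 0.05 was found there for 8 members, beside 3291 of all 12157 genes. In preparations 6 to 11, 9 members were called, beside 15.4% of all genes: Thrsp, Ebp, Lpin1, Sc5d, Acacb and Scd2 were higher and Lss, Sqle and Fads1 lower in gp130-. Thrsp was called at 1, 3, 6 and 12 h there, with differences between 0.88 and 1.30. Ebp and Lpin1 were called at 3 h only, where gp130- had just the arrays 6 and 9 in this set. Sc5d, Acacb and Scd2 were called at 6 h only, where gp130- had just the arrays 6 and 7. In this set Scd2 was detected on 2 of 23 gp130flox and 5 of 13 gp130- arrays, and Sc5d on 9 of 23 and 6 of 13. Insig1, which retains Scap in the endoplasmic reticulum, was the 1 member whose averaged genotype difference depended on the set by an interaction test (-0.92 ± 0.24, adjusted p = 0.011, beside 5.26% of all genes at this adjusted p). It differed by 0.89 within preparations 1 to 4, where gp130flox had means of 6.16 and 6.52 and gp130- of 7.35, 7.13 and 7.20. Within preparations 6 to 11 it differed by -0.02.

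Insig2, the liver-enriched partner of Insig1, had 3 probes past the filter, and they gave different pictures. The brightest, which stands for the gene in all counts here, differed by 0.28 ± 0.10 with the set term. The second, detected on all 61 arrays, had preparation means between 9.15 and 9.52 in gp130flox and between 7.32 and 8.50 in gp130-, with no overlap. It differed by -1.39 ± 0.13 averaged over times with the set term (adjusted p = 4.56e-12 over 19543 probes) and by -1.44 ± 0.17 without it (adjusted p = 4.01e-08). The remaining probe differed by 0.87 ± 0.19 with the set term (adjusted p = 0.00068) and by 0.51 ± 0.34 without it (adjusted p = 0.77). It was detected on 33 arrays and was at background in all 5 preparations of the set 1 to 4 (4.20 to 4.30). In the set 6 to 11 it was at 4.99 to 5.46 in gp130flox and at 5.90 to 7.11 in gp130-, with no overlap. In that set the second probe was thus lower and the remaining probe higher in gp130-, and this comparison of probes was chosen after their values were seen. Which Insig2 transcripts the 3 probes read was not examined.

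**Figure D3:**
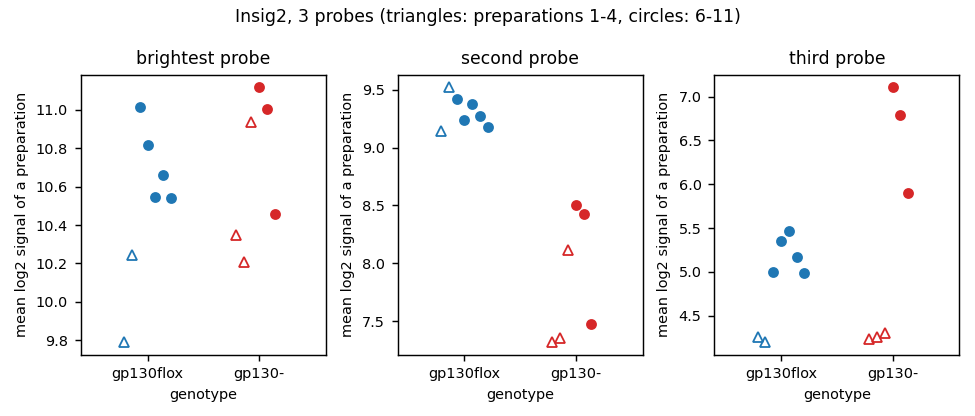
Mean log2 signal of each preparation for the 3 Insig2 probes past the filter, by genotype, with preparations 1 to 4 as triangles and 6 to 11 as circles. On the second probe the gp130- preparations (7.32 to 8.50) all lie below the gp130flox preparations (9.15 to 9.52), which is not so on the brightest probe.

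None of the 35 members was called for a change from 0 h in gp130flox hepatocytes, in the fit on group means (0.115% of all genes) or in the fit with each preparation as a fixed block (1.47%). The same held in gp130- hepatocytes (0% and 0.0411% of all genes) and for the difference of the changes between genotypes (0% and 0.526%). With the fixed block, 11, 6 and 6 of 35 members had an unadjusted p under 0.05 at 1 time or more in these comparisons. Over all 12157 genes the same counts were 3780, 2084 and 2719. No 95% interval of a member reached beyond 1.11 on the log2 scale in the fits with the fixed block.

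Insig2 was the 1 member whose change from 0 h passed an adjusted p of 0.05 in gp130flox, below the fold of 1.5, beside 3.79% of all genes. On its brightest probe the signal at 0 h had a lowest, median and highest of 9.99, 10.75 and 11.40, and at 12 h of 9.90, 10.43 and 10.53. The groups overlapped, but each of the 7 preparations was lower at 12 h than at 0 h, by 0.38 ± 0.29 on average (SD; limma with the fixed block, SE 0.08, adjusted p = 0.0034), and each was lower at 6 h (change of -0.34 ± 0.08, SE, adjusted p = 0.015). The second probe changed by -0.47 ± 0.12 at 12 h (adjusted p = 0.019). In gp130- the brightest probe's change was -0.17 ± 0.09 at 12 h (adjusted p = 0.97), and the difference of the changes was 0.21 ± 0.12 (adjusted p = 0.66).

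Other members had values that missed the test. Elovl6, the elongase from palmitate to stearate, was at -0.64 ± 0.20 at 6 h in gp130flox (adjusted p = 0.095), lower in 6 of 7 preparations. Stard4, a carrier of free cholesterol, was at -0.43 ± 0.13 at 6 h (adjusted p = 0.059), and Lss at -0.36 ± 0.10 at 3 h (adjusted p = 0.060), lower in 6 of 6 preparations. Thrsp in gp130- had changes of 0.48 to 0.60 from 1 to 12 h, above 0 in all 6 preparations at 1 and 12 h, with adjusted p-values between 0.41 and 1.00.

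**Figure D4:**
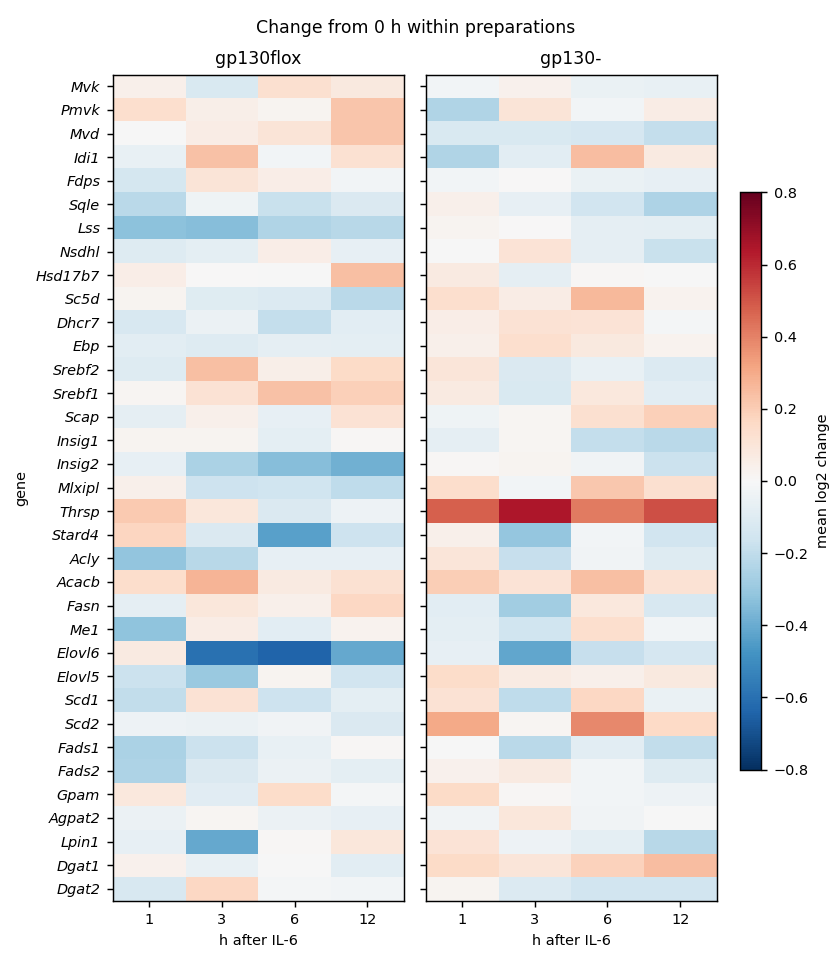
Mean log2 change from 0 h within preparations for 35 genes at 1, 3, 6 and 12 h after IL-6, in gp130flox (6 or 7 preparations) and gp130- hepatocytes (5 or 6 preparations). The deepest blue is Elovl6 in gp130flox (-0.64 at 6 h) and the deepest red Thrsp in gp130- (0.65 at 3 h).

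The widest differences among the members were between the sets of preparations, given as a description with no test. Of 35 members 12 had preparation means that did not overlap between the sets and a fold over 1.5, 9 higher and 3 lower in preparations 6 to 11, beside 27.4% of all genes. The median set difference was 0.32 over the members and -0.02 over all genes. The median SD within preparations was 0.23, and the median size of a set difference was 0.60.

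Scd1, the main stearoyl-CoA desaturase of liver, was at 9.07, 9.63, 11.58, 9.61 and 9.26 in the 5 preparations 1 to 4 and between 12.17 and 12.82 in the 8 preparations 6 to 11, a difference of 2.68 (6.39-fold). The value of 11.58 was that of the gp130- preparation 4, which was also the highest of its set for Thrsp (5.62) and Acacb (5.86). Thrsp differed by 2.47, limited by background in preparations 1 to 4, and Insig1 by 1.87. Pmvk, phosphomevalonate kinase, lay between 5.56 and 6.00 in the lower-numbered set and between 7.34 and 7.51 in the other, and Agpat2, an acyltransferase of phosphatidate synthesis, between 8.31 and 8.62 and between 9.66 and 10.01. Acacb (the mitochondrial acetyl-CoA carboxylase), Fads2 (the delta-6 desaturase), Fdps and Ebp were also higher in preparations 6 to 11 with no overlap, by 1.28, 1.25, 1.13 and 0.99.

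Other members went the other way. Gpam, which starts glycerolipid synthesis, differed by -1.01, Lpin1 by -0.96 and Me1, the NADPH-producing malic enzyme, by -0.79, each with no overlap. Elovl6 (-0.82) and Acly, ATP citrate lyase (-0.66), overlapped between the sets. Within the fatty acid group, then, Scd1, Acacb and Fads2 were higher and Me1 lower in the same preparations. The direction was the same within gp130flox and within gp130- for these 14 genes. The second probes of Agpat2, Fads2, Fdps, Insig1 and Lpin1 had the sign of the brightest, with sizes from 0.35 (Fdps, 1.13 on its brightest probe) to 1.87 (Insig1).

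**Figure D5:**
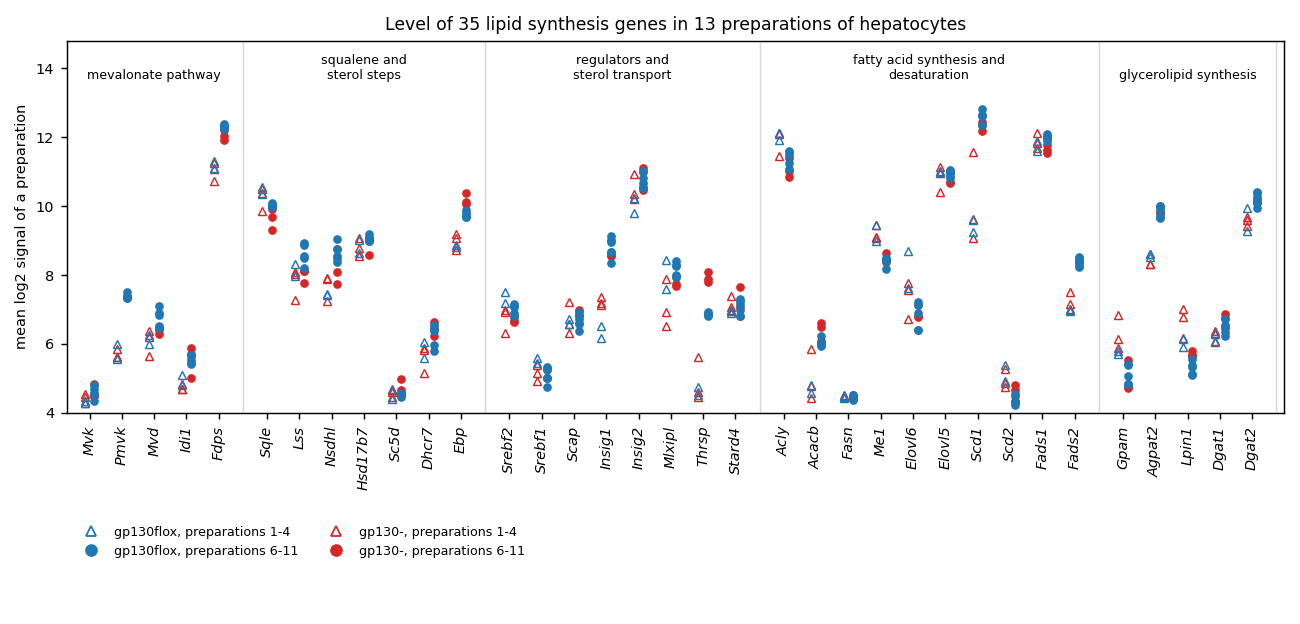
Mean log2 signal of each of 13 preparations for 35 genes grouped by role, with gp130flox in blue, gp130- in red, preparations 1 to 4 as open triangles and 6 to 11 as filled circles. Scd1, Thrsp, Insig1, Pmvk and Agpat2 separate the sets by 1.37 to 2.68, while Lpin1 and Gpam lie lower in preparations 6 to 11.

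Markers of cell state and of other cells moved with the sets. Of 11 tested hepatocyte markers 9 were higher and 1, Apob (-1.58), was lower in preparations 6 to 11 with no overlap. Hnf4a (-0.87) was lower but overlapped between the sets. Beside this count and those below, 27.4% of all genes passed the same rule, 1451 of 12157 higher and 1882 lower. Cyp2e1 had set means of 4.73 and 13.26, Asgr1 of 5.03 and 11.52 and Apoa1 of 8.82 and 14.23, and Tat did not pass the filter. The summed linear signal of the hepatocyte list ranged from 8006 to 25435 in preparations 1 to 4 and from 56941 to 95484 in preparations 6 to 11. All 3 tested genes of dividing cells were lower in preparations 6 to 11 (Anln by -5.41), with sums of 863 to 3173 and of 87.4 to 185.7. Kupffer cell markers (4 of 7, sums of 948.5 to 4769 and of 3954 to 9261) and endothelial markers (6 of 7, sums of 141.2 to 234.3 and of 311.6 to 639.6) were higher there. The stellate cell list had 1 of 5 higher and 1 lower, and of the cholangiocyte genes 1 of 4, Krt19, was lower. Of the adipocyte list Adipoq, Plin1 and Retn did not pass the filter, and Cidec overlapped between the sets. The part of these cells and states in the members' differences was not tested, and fewer cells of a type and less RNA per cell cannot be told apart.

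Between genotypes with the set term, 4 of 11 hepatocyte markers were called higher in gp130- averaged over times, beside 4.4% of all genes (Cps1 by 1.41, Apoa1 by 0.88, Alb by 0.64 and Cyp2e1 by 0.61). Of the 7 tested Kupffer cell markers 1 was called, Cd14 (-0.71, lower). The summed signal of this list, in which bright genes such as Cd14 weigh most, did not overlap between genotypes in preparations 6 to 11. It was 6058 to 9261 in gp130flox and 3954 to 5551 in gp130-. In preparations 1 to 4 it overlapped (1467 to 3773 and 948.5 to 4769). The sums of the other marker lists overlapped between genotypes in preparations 6 to 11. Of the 4 tested cholangiocyte markers 1 was called, Sox9 (-0.77, lower). The 1 tested adipocyte gene, Cidec, which encodes a droplet protein, was higher (0.59). None of the endothelial, stellate or dividing cell genes was called in this fit. These values stand beside the differences of Lss, Srebf2, Mlxipl, Lpin1 and Thrsp, and their part in them was not tested.

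A second list, of 24 other lipid synthesis genes, had 16 members tested. At single times none was called on group means and 4 were called with the set term (2 higher, 2 lower in gp130-), beside 7.64% of all genes. Cyp51, the lanosterol demethylase that acts after Lss, was lower in gp130- by -0.59 ± 0.10 averaged over times with the set term (adjusted p = 7.03e-06) and by -0.996 ± 0.27 without it (adjusted p = 0.033). Elovl2, an elongase of polyunsaturated fatty acids, was higher by 0.67 ± 0.16 (adjusted p = 0.0021), as was Lpin2, a second lipin, by 0.65 ± 0.18 (adjusted p = 0.0098). Of the 16 genes 9 were higher and none lower in preparations 6 to 11 with no overlap, beside 27.4% of all genes in either direction, Tm7sf2 (a sterol reductase) by 2.65 and Cyp51 by 1.98.

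Low signals limit several members. Mvk was detected on 16 of 61 arrays, Fasn on 19, Sc5d on 28, Scd2 on 31 and Thrsp on 53, while 25 of the 35 members were detected on all arrays. The Fasn probe, for fatty acid synthase, stayed between 4.19 and 4.98 on all arrays, and its set means were 4.48 and 4.46.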

How the data were processed

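Total RNA of 61 hepatocyte samples was hybridised to Illumina MouseWG-6 v2 arrays. The authors' GenomeStudio (1.6.0) output is a table of raw intensities of 45281 probes, deposited before any normalization. A deposited detection p-value compares each probe with negative controls. The authors' second table of intensities is cubic-spline normalized and served as an alternative, but its columns carry no numbers that give preparations, so fits needing these were not run on it.

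Background correction, an offset of 16, quantile normalization and log2 were done by neqc (limma 3.58.1, R 4.3.3). The annotation gave 34885 probes 1 gene, 18 several and 10378 none. No column was left unassigned and no pair of arrays was identical. Between 15257 and 19256 probes were detected per array, and precision is limited by how many arrays there are. Models of 10 group means were fitted by lmFit and eBayes with Benjamini-Hochberg adjustment over 12157 genes. Averaged differences used preparation as a random block (correlation 0.637, with a set term 0.355). The labels do not say that arrays of 1 number share a mouse. Their pairing was taken from genotype and number. Deviations from group means correlated with a median r of 0.856 over these 114 pairs (lowest 0.276), and of 0.427 (lowest -0.341) once the set was removed. The closest array was of the same preparation for 43 of 61 arrays, and for 40 once the set was removed. A legend of the study gives fewer mice per genotype than there are preparations here, while another legend gives a larger number per group without naming mice. The labels tie no array to a mouse, so preparations may share mice. p-values then measure only the spread between these samples, which may be technical.

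Members, lists, sets and tests were chosen with earlier results of these data known. The text names members called in a fit, the 5 widest set differences in each direction, and others as examples. The Insig2 probes were chosen after their values were seen. Alternatives covered normalization, filter, weights, sets and left-out arrays. Scripts were tested on simulated data.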

Additional observations from a re-analysis of the deposited data

Results flagged for a closer look

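On 3 groups of arrays 1 array stood far from the rest of its group, of 140 groups tested over 14 genes. Chance would give about 1 in 20 groups, so that 3 is fewer than chance alone would give. Srebf2 was at 8.60 on the gp130flox array 1 at 3 h, with the next array at 7.21. Elovl6 was at 9.17 on the gp130flox array 1 at 0 h, with the next at 7.75. Mlxipl was at 7.43 on the gp130flox array 2 at 3 h, with the next at 8.04. All 3 arrays belong to preparations 1 and 2, the only gp130flox preparations of the lower-numbered set.

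For Insig1 an interaction test found unequal genotype differences in the sets: the value for preparations 6 to 11 minus that for preparations 1 to 4 was -0.92 on the log2 scale.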

How the results depend on the processing

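At single times the fit on group means called 0 of 35 members between genotypes. This count was 19 with array weights (32.2% of all genes called in the same fit), 4 with a term for the set (7.64%), 9 within preparations 6 to 11 (15.4%), 2 with a random replicate block (2.4%), 5 with that replicate block and the set term (8.93%), 1 without the gp130- preparations with Xist signal (2.87%) and 8 without them and with the set term (13%). Averaged over times 1 member was called. That count was 13 with array weights (21.6% of all genes). It was 2 with no detection filter (1.51%), a fold above 1.2 (1.83%), the set term (4.4%), preparations 6 to 11 alone (7.65%), no replicate block (3.51%) and no replicate block with the set term (4.39%), and 3 without the Xist preparations and with the set term (6.84%). Leaving out 1 array or 1 preparation gave 0 to 2 members at single times and 0 to 2 averaged, with 0 without gp130flox 8, 10 or 11. The share of all genes called in these leave-outs is not given here. The counts for changes from 0 h and for differences of changes were 0 under all 17 alternatives, the fixed replicate block included, and in all 74 leave-outs. With array weights Thrsp reversed, to -1.31 averaged, -1.31 at 6 h and -1.04 at 12 h without the set term. Leaving out 1 array or preparation moved Thrsp from -0.17 to 0.57 averaged, from -0.38 to 0.44 at 6 h and from -0.030 to 0.75 at 12 h. The cause of these shifts was not tested. Dim probes limit Mvk, Fasn, Sc5d and Scd2, and Thrsp in preparations 1 to 4.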
